A study of Homo sapiens with 14 samples.

Results

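The translation initiation factor genes of MiaPaCa2 cells, an established human pancreatic cancer line, were followed through nutrient starvation and the silencing of NUPR1, RELA or RELB. Members were all genes whose single symbol in the array annotation starts with EIF and a digit from 1 to 6, with pseudogenes left out. The rule gave 50 genes of the 18377 genes measured, of which 49 code for proteins and 1, EIF3J-DT, is an RNA gene beside EIF3J. It also takes in the eIF2 kinases (EIF2AK genes) and the repressors of eIF4E (EIF4EBP genes). Of the 50 members, 47 passed the filter on dim genes and were tested. The cap-binding gene EIF4E, EIF4E3 and EIF1AY lay under it. Another 10 transcript clusters carried several symbols and gave no member, so EIF3C, EIF4A1, EIF4EBP3 and EIF5A have no value of their own here, and EIF4G3 was not analysed here. The argonaute genes, once named EIF2C, carry AGO symbols and were not taken by the rule.

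The 14 arrays form 2 sets with different unstarved references. In the NF-kB set, 6 arrays held cells transfected with a scrambled control siRNA (siCtrl), siRelA or siRelB, each kept for 9 h in EBSS or in a medium called mock, whose composition the labels do not give. In the Nupr1 set, 8 arrays held cells transfected with siCtrl or siNupr1, taken before starvation (0 h) and then at 3, 6 and 9 h of EBSS. EBSS is a balanced salt solution that, by the labels, lacks glucose, amino acids and growth factors. The 0 h arrays are titled DMEM, the growth medium, although another label of theirs names EBSS, and they were used as unstarved. The siNupr1 array at 9 h is titled with another code than its remaining labels, which say siNupr1. No combination of siRNA, medium and time has more than 1 array. Nothing in the labels tells separate cultures from repeat preparations, so p-values measure only the spread between these arrays. The study asked which genes NUPR1 activates under starvation, and whether RelA and RelB act on different genes.

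Initiation is the step at which the ribosome is brought to an mRNA and placed on the start codon. The eIF4F complex binds the cap and unwinds the leader, eIF3 holds the small ribosomal subunit to the mRNA, and eIF2 with GTP brings the initiator tRNA. EIF1 and EIF1A proteins keep the subunit scanning until the start codon is met, EIF5 then triggers GTP hydrolysis on eIF2, and EIF5B joins the large subunit. A pair of switches acts on protein activity in starved cells: the eIF2 kinases phosphorylate eIF2 alpha, which blocks its exchange factor eIF2B, and loss of mTORC1 activity frees the 4E-BP repressors to hold eIF4E. The arrays measure RNA and do not see either switch.

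Array medians ran from 5.67 to 5.84 on the log2 scale. NUPR1 fell by 0.87 ± 0.10 (SE) under siNupr1, RELA differed by -2.49 ± 0.13 under siRelA and RELB by -1.32 ± 0.17 under siRelB. Of the epithelial markers listed, 4 of 6 lay above the filter, with KRT8 at a median of 12.8 and KRT18 at 13.0. EPCAM (3.59) and CDH1 (4.52) lay below it. Of 3 mesenchymal markers, VIM (12.7) and ZEB1 (6.97) lay above it and CDH2 (4.77) below. No endothelial marker of 3 lay above the filter. Of 4 leukocyte markers, 1 lay above it, CD14 at 5.95, while PTPRC at 2.68 was among those below. The filter was also passed by 2 of 5 fibroblast markers (COL1A1 and COL1A2) and 1 of 3 acinar markers (CELA3A).

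Short motifs, which the selection rule did not use, were counted in the promoters of the members. RefSeq windows of 300 bases (250 before the start site, 50 after, build GRCh38.p14) were matched for 42 members and 8 had none. The E-box CACGTG, the palindrome bound by MYC, MAX, USF and the TFE family, occurred in 11 of these 42 windows (26.2%), against 8.88% of the 15842 windows of protein-coding genes and 7.43% of all 27305 windows. EIF4E, EIF4G1 and EIF5A2 had 2 E-boxes each. The sites are shown because the E-box was the motif whose share differed most, in percentage points, from that of coding promoters; as a ratio, the ETS letters described after them differed slightly more. Each is given on the strand of its gene with the E-box in capitals.
EIF4E, chr4:98929343-98929368, minus strand: acccatcggcCACGTGaccagtcctt
EIF4E, chr4:98929190-98929215, minus strand: acatatccgtCACGTGgccagaagct
EIF4G1, chr3:184314452-184314477, plus strand: ctgtggctgtCACGTGacggggcggg
EIF4G1, chr3:184314529-184314554, plus strand: ctgcgccggtCACGTGggggcgccgg
EIF5A2, chr3:170908809-170908834, minus strand: taatccgcagCACGTGgggttgccag
EIF5A2, chr3:170908784-170908809, minus strand: gggcgctcttCACGTGactgggcgga
EIF4B, chr12:53006424-53006449, plus strand: ccgctataatCACGTGattgcctcat
EIF4A3, chr17:80147234-80147259, minus strand: agttccctttCACGTGacgaagagtg
EIF2AK2, chr2:37157146-37157171, minus strand: gcaggggcagCACGTGggtgccaagc
EIF1B, chr3:40309643-40309668, plus strand: gcgggacggtCACGTGggaggggccg
EIF3K, chr19:38619075-38619100, plus strand: aggaagaagtCACGTGgcagccggaa

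The other 3 members with an E-box were EIF2B3, EIF3F and EIF4H. Between EBSS and mock, 6 of the 11 fell, 0 rose, 4 did not pass and EIF4E was not tested. The 6 are 60.0% of the 10 tested, near the 55.3% of all tested members that fell (29.3% of all genes did). Members with an E-box did not move as a block: EIF4A3 fell by 0.50 and EIF2AK2 by 1.31, while EIF1B (0.17 ± 0.12), EIF3F (0.03 ± 0.13) and EIF3K (0.09 ± 0.08) did not pass. A match describes the letters of a window and says nothing about what binds there.

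The remaining 6 motifs were searched on both strands in the same windows. The ETS letters CCGGAAGT occurred in 8 members (19.0%, against 6.19% of coding windows) and the interferon-response core GAAANNGAA in 7 (16.7%, against 7.06%). NRF1's GCGCANGC was found in 10 (23.8%, against 16.69%), and CCAAT in 15 (35.7%, against 36.35%). Neither TGATGNAA, the joint ATF4 and C/EBP letters, nor the palindrome TGACGTCA was found in any member window, against 2.53% and 2.59% of coding windows. EIF2AK2, which encodes the interferon-induced kinase PKR, carried the interferon-response letters across its start site, from -6 to 3 counted from the start, and EIF6 carried them from -76 to -68; both are shown, with the match in capitals, because EIF2AK2 is the member known for its induction by interferon.
EIF2AK2, chr2:37156968-37156996, minus strand: agtccaagggGAAAACGAAactgagaacc
EIF6, chr20:35284775-35284803, minus strand: gacggaagtgGAAACGGAAacctttttag
The 100 bases before the start of EIF5B, the member with the largest difference, held an NRF1 match on the opposite strand from -19 to -12, in capitals, and no other motif searched.
EIF5B, chr2:99337289-99337388, plus strand: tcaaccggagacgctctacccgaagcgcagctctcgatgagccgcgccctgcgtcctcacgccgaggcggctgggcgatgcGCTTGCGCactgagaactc

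Between EBSS and mock at 9 h, more initiation factor RNAs fell than rose. Of the 47 tested members, 26 fell and 6 rose, at an adjusted p under 0.05 (limma, Benjamini-Hochberg over all tested genes). That is 68.1% of members, where 51.9% of the 11026 genes tested passed. The members' shares were 55.3% lower and 12.8% higher, beside 29.3% and 22.6% of all genes. Their median difference was -0.25 on the log2 scale against 0.05 for all genes. EIF5B, EIF2AK2 and EIF3A fell most, by more than a log2 unit, and EIF6, EIF3J-DT, EIF1, EIF3D, EIF4EBP1 and EIF3G rose, by 0.26 to 0.50. In 31 of the 32 called members all 3 pairs of arrays moved the same way, the exception being EIF4EBP1. The calls rest on these same pairs, so the count gives them no further support. It takes in pairs near 0, such as EIF2S3B with siCtrl at -0.002.

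**Figure D1:**
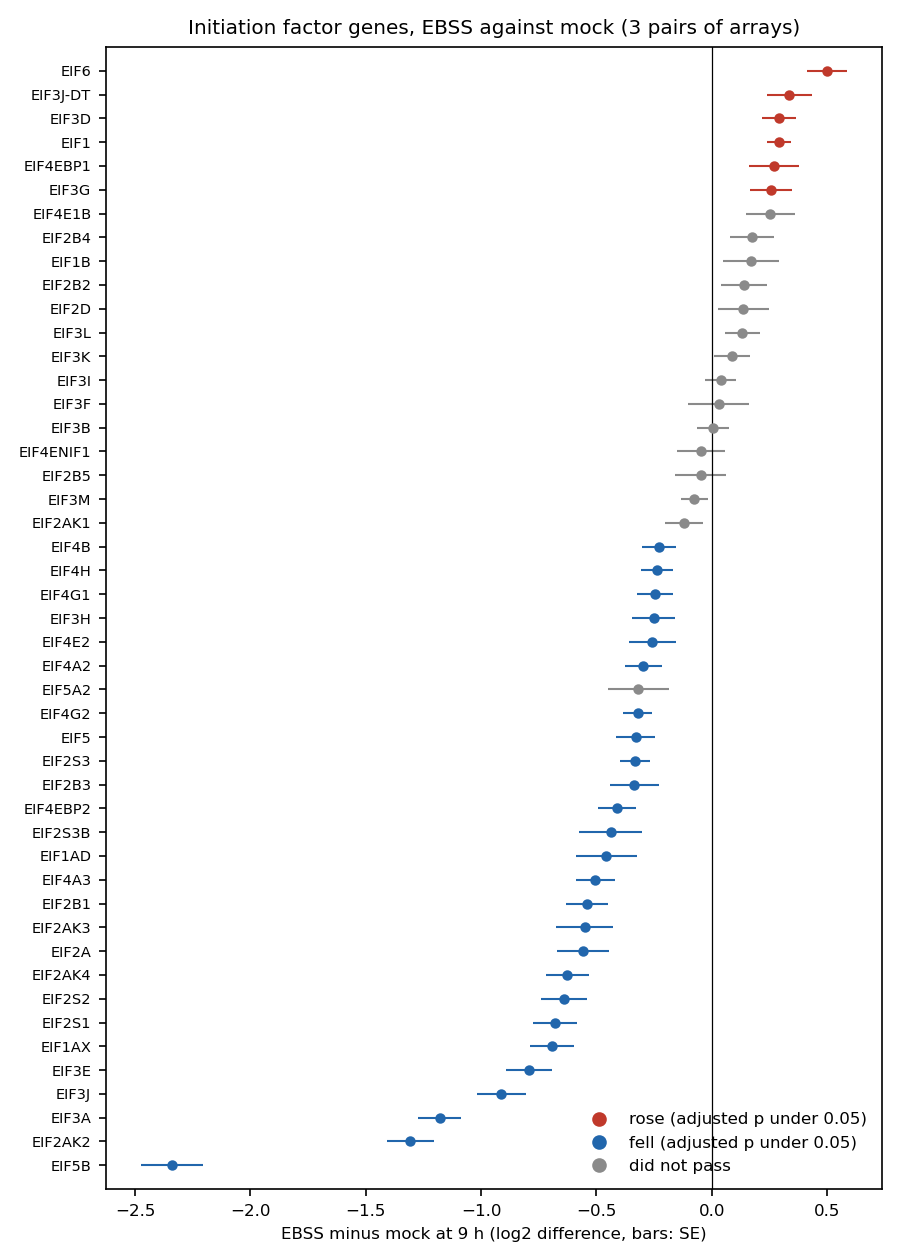
Difference between EBSS and mock at 9 h for the 47 tested initiation factor genes, as log2 difference with bars of 1 SE from 3 pairs of arrays. Red points rose, blue points fell and grey points did not pass. EIF5B lies apart at -2.34, and the largest rise is EIF6 at 0.50.

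Of these 32 calls, 21 were kept in each of the 14 fits that left out 1 array, 18 lower and 3 higher (EIF1, EIF3D and EIF6). Leaving out either siRelA array ended the calls of EIF2B3, EIF2S3B, EIF3G, EIF3H, EIF3J-DT, EIF4B, EIF4E2, EIF4EBP1, EIF4G1 and EIF4H, and the calls of EIF1AD, EIF2B3, EIF2S3B, EIF3H and EIF4E2 also ended without either siRelB array. Those of EIF3G, EIF3J-DT and EIF4EBP1 ended without either siCtrl array of the set, that of EIF4B without the siRelB mock array, and those of EIF4E2 and EIF4EBP1 also without any 3 h or 6 h array of the Nupr1 set. The highest adjusted p in such fits was 0.275, for EIF4E2. The share of all genes that kept their calls in these fits is not given here.

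The time course of the Nupr1 set gave smaller differences, with 2 pairs of arrays at each time. At 3 h, 8 of 47 members fell and 1 rose (19.1%, beside 12.3% of all genes; 9.07% of all genes fell and 3.27% rose). At 6 h, 12 fell and 2 rose (29.8%, beside 23.4%; 15.7% and 7.65% of all genes). At 9 h, 7 fell and 7 rose (29.8%, beside 24.3%; 15.1% and 9.19% of all genes). The median difference of members was -0.09, -0.02 and 0.01 at the 3 times. With the arrays quantile normalized once more, the calls at 3 h were 4 lower and 2 higher and those at 6 h 9 lower and 4 higher. Of all genes, 5.93% then fell and 4.42% rose at 3 h, and 13% fell and 10.4% rose at 6 h. With array weights, 12 members fell and 2 rose at 3 h (29.8%, beside 19.7% of all genes), and 2 fell and 4 rose at 9 h (12.8%, beside 13.8%). The 9 h calls of EIF2AK4, EIF2B3, EIF3B, EIF3D, EIF4A3, EIF4B, EIF4E2 and EIF4EBP2 were then lost. Without the filter on dim genes 5 members passed at 3 h (10% of 50, beside 6.78% of all 18377 genes). From 3 h to 9 h, EIF5 and EIF4G2 rose and EIF2B1 fell (6.4% of members, beside 7.34% of all genes, with 2.66% lower and 4.68% higher), a count of 3 that was 1 with array weights and 7 with the trend on gene span removed.

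These counts changed when single arrays were left out. The share of all genes called in such fits is not given here, so a loss particular to the members cannot be told from a general one. At 3 h, 2 members passed without the siCtrl 0 h array, 2 without the siCtrl 3 h array and 1 without the siNupr1 3 h array. At 6 h, 5 passed without the siCtrl 0 h array, 3 without the siCtrl 6 h array and 8 without the siNupr1 6 h array, and at 9 h, 6 passed without the siCtrl 0 h array. EIF1 and EIF2AK2 at 6 h, and EIF1, EIF2AK2, EIF2B1 and EIF5 at 9 h, kept their calls in all 14 fits; at 3 h no call did. From 3 h to 9 h, 0 members passed without either 3 h array, 1 without the siNupr1 9 h array, and 5 without the siCtrl 9 h array of the Nupr1 set or either siRelA array.

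Among the eIF2 kinases, the RNAs for PKR, PERK and GCN2 fell under starvation and that for HRI did not pass in any comparison. EIF2AK2 (PKR, activated by double-stranded RNA) measured 8.31, 8.05 and 8.03 in EBSS and 9.58, 9.43 and 9.30 in mock, in the order siCtrl, siRelA and siRelB that is kept below. The EBSS and mock arrays did not overlap. The difference was -1.31 ± 0.10 (adjusted p = 6.22e-09). Over 0, 3, 6 and 9 h it measured 9.61, 8.93, 8.77 and 8.66 with siCtrl and 9.07, 8.53, 8.54 and 8.63 with siNupr1, so both 0 h arrays lay above all later arrays of their own siRNA. It fell by 0.61 at 3 h, 0.68 at 6 h and 0.69 at 9 h (SE 0.12 at each), the call at 3 h being lost without the siCtrl 0 h or siNupr1 3 h array (adjusted p up to 0.104).

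EIF2AK3 (PERK, the kinase of endoplasmic reticulum stress) measured 6.57, 6.09 and 6.33 in EBSS and 7.10, 6.49 and 7.05 in mock. The groups overlapped, because the siRelA mock array lay below the siCtrl EBSS array, while each pair moved down. It fell by 0.55 ± 0.12 (adjusted p = 0.00103). In the time course it measured 7.22, 6.69, 6.34 and 6.78 with siCtrl and 6.87, 6.46, 6.65 and 6.56 with siNupr1. The falls of 0.47 at 3 h and 0.55 at 6 h (SE 0.15) passed, and the difference of -0.37 ± 0.15 at 9 h did not (adjusted p = 0.0776). Those at 3 and 6 h ended without the siCtrl 0 h array or the siCtrl array of that time, and at 3 h also without the siNupr1 3 h array (adjusted p up to 0.427).

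EIF2AK4 (GCN2, which senses uncharged tRNA) measured 7.73, 8.0 and 7.99 in EBSS and 8.45, 8.63 and 8.52 in mock, without overlap. Its fall was 0.63 ± 0.09 (adjusted p = 1.38e-05). With siCtrl it measured 8.97, 8.66, 8.69 and 8.67 over 0, 3, 6 and 9 h, and with siNupr1 8.76, 8.36, 8.42 and 8.35. The falls of 0.36 at 3 h and 0.36 at 9 h (SE 0.11) passed, and the difference at 6 h, -0.31 ± 0.11, did not (adjusted p = 0.0518). Both calls were lost without single arrays, among them either 0 h array (adjusted p up to 0.286 at 3 h and 0.154 at 9 h).

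EIF2AK1 (HRI, the heme-regulated kinase) measured 10.05, 10.12 and 10.19 in EBSS and 10.04, 10.43 and 10.24 in mock. The siCtrl pair was level and the siRelA pair moved down. The difference was -0.12 with a 95% interval from -0.29 to 0.05 (adjusted p = 0.221). Over 0 to 9 h it measured 10.14, 10.06, 10.09 and 10.03 with siCtrl and 10.28, 10.11, 10.17 and 10.04 with siNupr1.

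**Figure D2:**
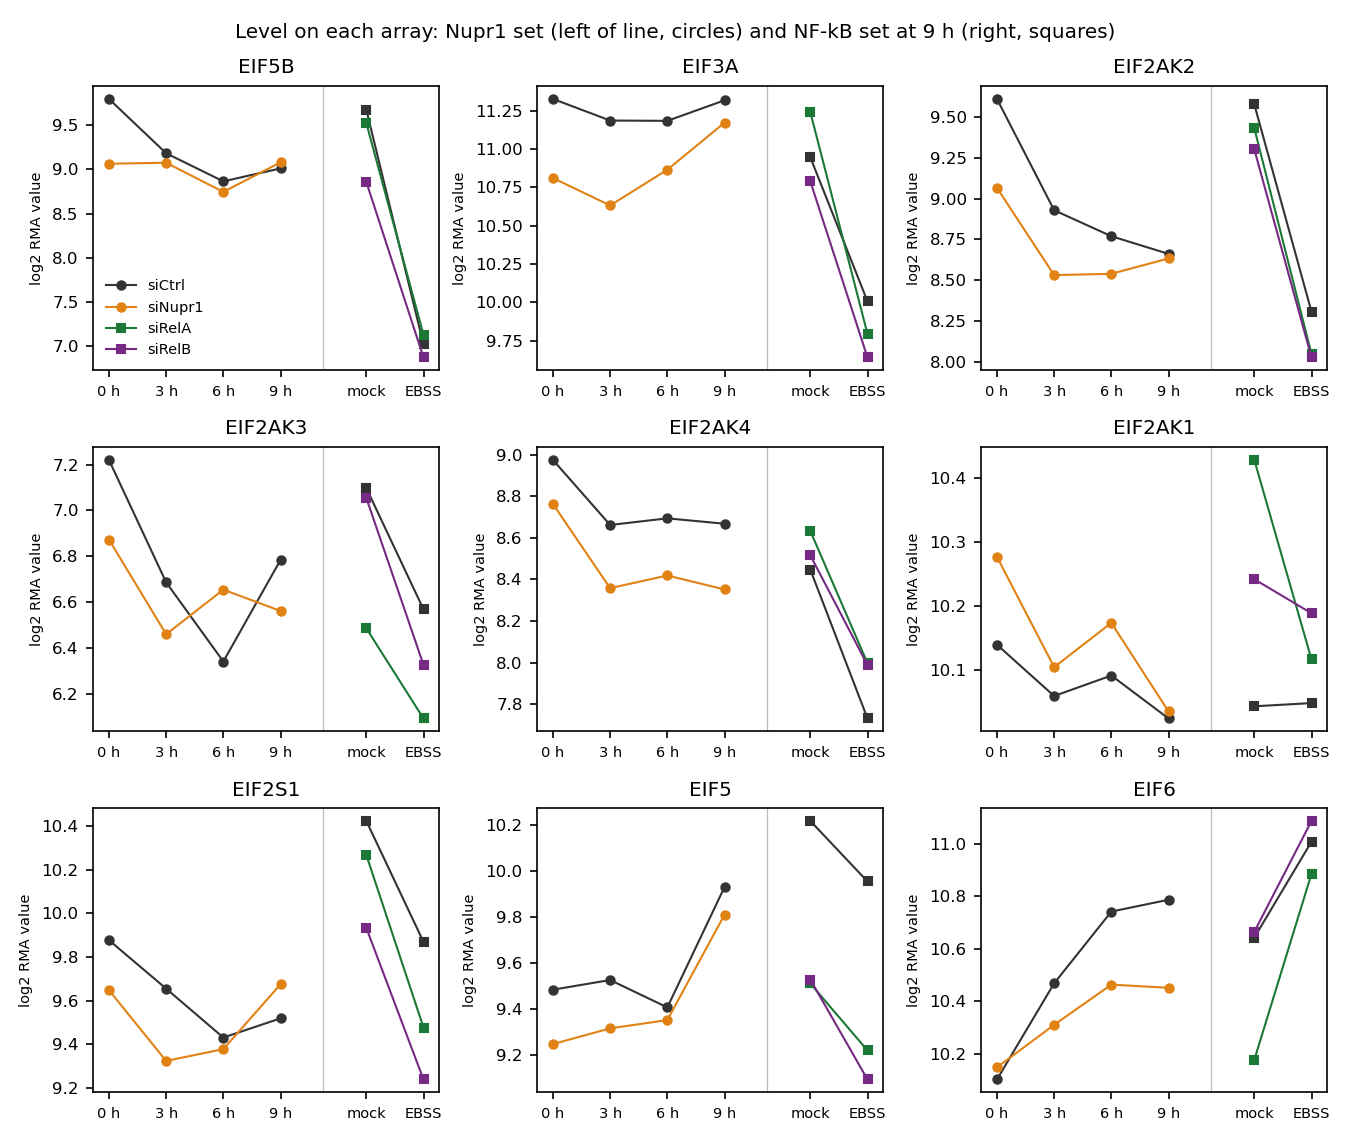
Level of 9 initiation factor genes on each of the 14 arrays as log2 RMA value, with its own vertical scale in each panel. Circles left of the line are the Nupr1 set at 0, 3, 6 and 9 h of EBSS, and squares right of it are the NF-kB set in mock and EBSS at 9 h; lines join arrays of the same siRNA. EIF5B lies at 6.88 to 7.13 in EBSS of the NF-kB set and at 8.74 or more on every other array.

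The subunits of eIF2 fell together in EBSS against mock and none passed at 9 h of the time course. EIF2S1, the alpha subunit that the kinases phosphorylate, measured 9.87, 9.48 and 9.24 in EBSS and 10.42, 10.27 and 9.93 in mock. All EBSS arrays lay under all mock arrays, and the fall was 0.68 ± 0.10 (adjusted p = 8.08e-06). EIF2S2, the beta subunit, measured 8.24, 7.87 and 7.59 against 8.97, 8.53 and 8.12. Here the groups overlapped through the siRelB mock array, and the fall was 0.64 ± 0.10 (adjusted p = 3.16e-05). EIF2S3, the gamma subunit that binds GTP, measured 11.56, 11.78 and 11.32 against 11.82, 12.23 and 11.61 and fell by 0.33 ± 0.06 (adjusted p = 0.000281). Each of its pairs moved down, although the siRelA EBSS array lay above the siRelB mock array. EIF2S3B, a copy of EIF2S3 whose probes may not tell the 2 apart, fell by 0.44 ± 0.14, a call lost without either siRelA or either siRelB array (adjusted p up to 0.213).

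At 0, 3, 6 and 9 h, EIF2S1 measured 9.88, 9.65, 9.43 and 9.52 with siCtrl and 9.65, 9.32, 9.38 and 9.68 with siNupr1. It fell by 0.36 ± 0.12 at 6 h, a call lost without the siCtrl 0 h, siCtrl 6 h or siNupr1 6 h array (adjusted p up to 0.281), and its 9 h difference was -0.17 ± 0.12 (adjusted p = 0.349). EIF2S2 measured 9.13, 8.88, 8.83 and 9.18 with siCtrl and 8.72, 8.77, 8.91 and 9.05 with siNupr1, a 9 h difference of 0.19 ± 0.12 (adjusted p = 0.318). EIF2S3 measured 11.93, 12.01, 11.92 and 12.08 with siCtrl and 11.94, 11.88, 12.08 and 12.16 with siNupr1, a 9 h difference of 0.18 ± 0.08 (adjusted p = 0.105). For each of the 3 subunits the 9 h array with siNupr1 lay above its 0 h array.

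The exchange factor eIF2B, which recharges eIF2 with GTP, moved in parts. EIF2B1, its alpha regulatory subunit, measured 8.61, 9.11 and 8.70 in EBSS and 9.17, 9.66 and 9.21 in mock, and the pairs differed by nearly the same amount, -0.55, -0.56 and -0.52. It fell by 0.54 ± 0.09 (adjusted p = 5.71e-05). In the time course it stepped down at each time, from 9.00 to 8.71, 8.42 and 8.32 with siCtrl and from 9.19 to 8.80, 8.68 and 8.35 with siNupr1. The fall was 0.54 ± 0.11 at 6 h and 0.76 ± 0.11 at 9 h (adjusted p = 5.44e-05), and from 3 h to 9 h it was 0.42 ± 0.11. The calls at 6 h and from 3 h to 9 h were lost without the siCtrl 6 h array and without a 3 h array of either siRNA or the 9 h array of siNupr1 (adjusted p up to 0.0761 and 0.246).

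EIF2B3, the gamma subunit of its catalytic part, fell by 0.34 ± 0.11 in EBSS against mock, by 0.38 ± 0.13 at 6 h and by 0.46 ± 0.13 at 9 h. With siCtrl it measured 8.42, 8.26, 8.08 and 8.10 over the 4 times and with siNupr1 8.61, 8.17, 8.20 and 8.0. Its 9 h call was lost without either siNupr1 array of that contrast (adjusted p up to 0.137), and its 6 h call without 6 single arrays, the 0, 3 and 6 h arrays of both siRNAs (adjusted p up to 0.335). EIF2B2, EIF2B4 and EIF2B5, the beta, delta and epsilon subunits, passed in no comparison; in EBSS against mock they differed by 0.14 ± 0.10, 0.17 ± 0.09 and -0.05 ± 0.11.

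EIF2A and EIF2D encode proteins that can carry initiator tRNA without eIF2. EIF2A measured 8.35, 7.45 and 7.64 in EBSS and 8.70, 8.28 and 8.14 in mock. The siCtrl EBSS array lay above both silenced mock arrays, and each pair moved down. Its fall was 0.56 ± 0.11 (adjusted p = 0.000418), while EIF2D differed by 0.14 ± 0.11 (adjusted p = 0.293).

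Of the 12 eIF3 subunits tested, 4 fell in EBSS against mock (EIF3A, EIF3E, EIF3H and EIF3J) and 2 rose (EIF3D and EIF3G). The share called, 6 of 12, is near the 51.9% of all genes, and the 33.3% that fell is near their 29.3%. EIF3A, the large scaffold subunit, measured 10.01, 9.79 and 9.64 in EBSS and 10.95, 11.24 and 10.79 in mock. The groups lay apart, and the fall was 1.18 ± 0.09 (adjusted p = 7.1e-09). From 0 to 9 h it measured 11.33, 11.19, 11.18 and 11.32 with siCtrl and 10.81, 10.63, 10.87 and 11.17 with siNupr1. Its 9 h difference was 0.18 ± 0.11 (adjusted p = 0.297), and the siNupr1 array at 9 h was its highest of that siRNA.

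EIF3J, a loosely bound subunit near the decoding centre, measured 8.14, 8.21 and 7.58 in EBSS and 9.26, 9.00 and 8.42 in mock. It fell by 0.91 ± 0.11 (adjusted p = 8.18e-07) with no overlap between groups. Its 6 h fall of 0.37 ± 0.13 was lost without any of 8 single arrays, the 0, 3 and 6 h arrays and both siRelB arrays (adjusted p up to 0.318). The divergent RNA EIF3J-DT moved the other way, at 7.58, 7.74 and 7.82 in EBSS and 7.15, 7.34 and 7.65 in mock, a rise of 0.34 ± 0.10 (adjusted p = 0.00797). Its siRelB mock array lay above its siCtrl EBSS array, so the groups overlapped.

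EIF3E measured 8.52, 7.22 and 7.53 in EBSS and 9.20, 7.96 and 8.49 in mock, where both silenced cells lay below siCtrl in each medium. It fell by 0.79 ± 0.10 (adjusted p = 2.17e-06) in starvation. With siCtrl it measured 9.02, 8.75, 8.51 and 8.72 over 0 to 9 h, and with siNupr1 8.84, 8.70, 8.45 and 8.90, lowest at 6 h in both. The 6 h fall of 0.45 ± 0.12 did not pass without the siCtrl 0 h, siCtrl 6 h or siNupr1 6 h array (adjusted p up to 0.171). EIF3H fell by 0.25 ± 0.09, and EIF3D and EIF3G rose by 0.29 ± 0.07 and 0.26 ± 0.09. EIF3B, EIF3F, EIF3I, EIF3K, EIF3L and EIF3M lay between -0.08 and 0.13 and did not pass. At 9 h of the time course EIF3D (0.29 ± 0.09) and EIF3B (0.27 ± 0.09) rose, and both calls ended without the siCtrl 0 h or siCtrl 9 h array (adjusted p up to 0.414 and 0.274).

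Of the 7 tested genes of eIF4F and its helicase partners, 6 fell in EBSS against mock (85.7%, beside 29.3% of all genes), all by less than 0.35. EIF4G2, a scaffold that lacks the cap-binding contact, fell by 0.32 ± 0.06 (adjusted p = 0.00036) and the helicase EIF4A2 by 0.30 ± 0.08 (adjusted p = 0.00451). EIF4A2 has another, dimmer cluster that differed by 0.36 the other way, and the mean of its clusters gave 0.03. EIF4E2, a cap-binding homologue of eIF4E linked to repression, fell by 0.26 ± 0.10 and the scaffold EIF4G1 by 0.25 ± 0.08. The helicase stimulators EIF4H and EIF4B fell by 0.24 ± 0.07 and 0.23 ± 0.08. The call of EIF4B was not kept with the mean of its 3 clusters. Without either siRelA array the calls of EIF4B, EIF4E2, EIF4G1 and EIF4H were lost, while those of EIF4A2 and EIF4G2 were kept in all 14 fits that left out 1 array. EIF4E1B, an eIF4E paralogue known from oocytes, did not pass at 0.25 ± 0.11 (adjusted p = 0.0503). EIF4E itself ran from 5.42 to 6.01 over the 14 arrays, and in a fit without the filter it differed by -0.20 ± 0.13 (adjusted p = 0.231).

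EIF4E2 stood out in the time course, at 8.35, 7.90, 7.98 and 8.12 with siCtrl and 8.60, 8.14, 8.08 and 8.08 with siNupr1, with both 0 h arrays above the later ones. It fell by 0.45, 0.44 and 0.37 at 3, 6 and 9 h (SE 0.125). Each of these calls was lost without single arrays of its contrast, with adjusted p up to 0.245, 0.116 and 0.247. EIF4G2 fell by 0.24 ± 0.08 at 3 h and rose by 0.31 ± 0.08 from 3 h to 9 h, with levels of 11.80, 11.57, 11.63 and 11.80 (siCtrl) and 11.70, 11.45, 11.61 and 11.83 (siNupr1). EIF4A2 fell by 0.38 ± 0.10 at 6 h and EIF4B rose by 0.30 ± 0.09 at 9 h. These 2 calls were not kept with the mean of a gene's clusters. The 3 clusters of EIF4B differed by 0.304, 0.545 and -0.01 at 9 h. The calls of EIF4G2, EIF4A2 and EIF4B were all lost without at least 2 of the arrays compared. The siCtrl 0 h array was among them for each but the rise of EIF4G2.

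The 2 repressors that bind eIF4E and have a value went opposite ways. EIF4EBP2 measured 10.10, 9.77 and 9.75 in EBSS and 10.34, 10.36 and 10.15 in mock, without overlap, and fell by 0.41 ± 0.08 (adjusted p = 0.000471). EIF4EBP1 measured 9.45, 9.37 and 9.09 against 9.02, 8.93 and 9.15. It rose in the siCtrl and siRelA pairs (0.43 and 0.44) and differed by -0.06 in the siRelB pair, which gave 0.27 ± 0.11 (adjusted p = 0.0425), a call lost without 8 single arrays (adjusted p up to 0.258): the siCtrl and siRelA arrays of the set and the 3 and 6 h arrays of the Nupr1 set. EIF4ENIF1, which carries eIF4E into the nucleus, differed by -0.05 ± 0.10.

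Over 0 to 9 h EIF4EBP2 measured 10.53, 10.10, 10.28 and 10.28 with siCtrl and 10.22, 9.74, 9.97 and 9.79 with siNupr1, lowest at 3 h in both. It fell by 0.46 ± 0.10 at 3 h and by 0.34 ± 0.10 at 9 h. These calls were lost without either 3 h array (adjusted p up to 0.0853), and without either siNupr1 array or the siCtrl 0 h array (up to 0.15). EIF4EBP1 measured 9.24, 9.48, 9.49 and 9.60 with siCtrl and 9.66, 9.67, 9.56 and 9.56 with siNupr1, and passed at no time. EIF4A3, a helicase of the exon junction complex that marks spliced mRNA, fell by 0.50 ± 0.08 in EBSS against mock, and by 0.41 ± 0.10 at 6 h and 0.38 ± 0.10 at 9 h, calls that ended without the siCtrl 0 h array (adjusted p up to 0.103 and 0.104).

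The scanning factors split in direction. EIF1, the gatekeeper of start-codon choice, measured 12.88, 12.76 and 12.69 in EBSS and 12.53, 12.59 and 12.33 in mock and rose by 0.29 ± 0.05 (adjusted p = 0.000127). The lowest EBSS array lay above the highest mock array. With siCtrl it measured 12.42, 12.76, 12.73 and 12.92 over 0 to 9 h and with siNupr1 12.49, 12.72, 12.81 and 12.88, and rises of 0.28, 0.31 and 0.44 (SE 0.06) passed at 3, 6 and 9 h. The 3 h call was lost without the siCtrl 0 h or 3 h array (adjusted p up to 0.131). Its paralogue EIF1B measured 6.35, 6.47, 6.61 and 7.18 with siCtrl and 6.57, 6.69, 6.69 and 6.92 with siNupr1, highest at 9 h in both, and rose by 0.59 ± 0.15 at 9 h, a call lost without the siCtrl 0 h or 9 h array (adjusted p up to 0.13).

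EIF1AX, which keeps the tRNA site open during scanning, measured 10.79, 10.31 and 10.41 in EBSS and 11.42, 11.14 and 11.02 in mock. It fell by 0.69 ± 0.09 (adjusted p = 5.37e-06) with the groups apart. Over 0 to 9 h it measured 11.14, 10.62, 10.56 and 10.64 with siCtrl and 10.74, 10.32, 10.34 and 10.86 with siNupr1. The falls at 3 h (0.48 ± 0.12) and 6 h (0.49 ± 0.12) were lost without the siCtrl 0 h array, and at 3 h also without the siNupr1 3 h array (adjusted p up to 0.208). At 9 h the 2 siRNAs went apart, by -0.50 with siCtrl and 0.11 with siNupr1. Another cluster of EIF1AX differed by -0.57 between EBSS and mock, and near-identical copies of this gene may share its probes. EIF1AD, which holds an eIF1A-like domain, fell by 0.46 ± 0.13 against mock and by 0.52 ± 0.16 at 3 h. At 0, 3, 6 and 9 h it measured 7.33, 7.02, 7.47 and 7.44 with siCtrl and 7.82, 7.08, 7.23 and 7.09 with siNupr1, so that the siCtrl arrays at 6 and 9 h lay above their 0 h array and the siNupr1 arrays below theirs, and the 3 h call was lost without the siCtrl 3 h array or either siNupr1 array (adjusted p up to 0.536).

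EIF5B, the GTPase that joins the ribosomal subunits, had the largest fall of the 11026 genes tested between EBSS and mock. It measured 7.02, 7.13 and 6.88 in EBSS against 9.67, 9.52 and 8.86 in mock. The 3 EBSS arrays lay close together, and the lowest mock array was far above them. The difference was -2.34 ± 0.13, a level of 0.198 of mock (adjusted p = 6.83e-10). In the time course it measured 9.79, 9.18, 8.86 and 9.01 with siCtrl and 9.06, 9.07, 8.74 and 9.08 with siNupr1. With siCtrl the 0 h array was the highest, and with siNupr1 the 0, 3 and 9 h arrays were level. The difference was -0.30 ± 0.16 at 3 h (adjusted p = 0.255), -0.62 ± 0.16 at 6 h (adjusted p = 0.00908) and -0.38 ± 0.16 at 9 h (adjusted p = 0.0984). The 6 h call was lost without the siCtrl 0 h or siCtrl 6 h array (adjusted p up to 0.325).

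EIF5, the GTPase activator of eIF2, measured 9.96, 9.22 and 9.10 in EBSS and 10.22, 9.51 and 9.53 in mock, with the siCtrl arrays high in both media. Each pair moved down, by 0.33 ± 0.09 in the fit (adjusted p = 0.00354). In the time course it went the other way, at 9.48, 9.53, 9.41 and 9.93 with siCtrl and 9.25, 9.32, 9.35 and 9.81 with siNupr1. Both 9 h arrays were the highest of their siRNA. The rise was 0.50 ± 0.10 against 0 h (adjusted p = 0.00142) and 0.45 ± 0.10 against 3 h, the latter lost without a 3 h array of either siRNA or the 9 h array of siNupr1 (adjusted p up to 0.197).

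EIF6, which holds the large subunit back from premature joining, measured 11.01, 10.88 and 11.09 in EBSS and 10.64, 10.18 and 10.66 in mock. It rose by 0.50 ± 0.09 (adjusted p = 9.12e-05) with the groups apart. Over 0 to 9 h it measured 10.10, 10.47, 10.74 and 10.79 with siCtrl and 10.15, 10.31, 10.46 and 10.45 with siNupr1, and the rises at 6 h (0.48 ± 0.11) and 9 h (0.49 ± 0.11) passed. Both were lost without the siCtrl 0 h array, and at 6 h also without the siCtrl 6 h array (adjusted p up to 0.109). EIF5A2, an eIF5A isoform, differed by -0.32 ± 0.13 between EBSS and mock (adjusted p = 0.0537), a difference carried by the siCtrl pair at -0.85 beside -0.10 and -0.01.

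The starvation response at 9 h differed between the sets for 14 members. In each, the NF-kB set lay lower, beside 24.5% of all genes that passed for this difference (16.4% lower and 8.11% higher); among the members 29.8% passed. With quantile normalization 13 were lower and 2 higher (27.7% and 4.3%, beside 16.5% and 10.1% of all genes). EIF5B differed most, by -1.96 ± 0.21 (adjusted p = 2.51e-06), followed by EIF3A at -1.35 ± 0.15 (adjusted p = 2.55e-06). EIF5 fell against mock and rose against 0 h, and the difference between these was -0.83 ± 0.13 (adjusted p = 0.000149). EIF2S2 (-0.83), EIF3J (-0.81), EIF2A (-0.75), EIF3E (-0.68), EIF2AK2 (-0.62), EIF4B (-0.53), EIF2S3 (-0.51), EIF2S1 (-0.51), EIF1AX (-0.50), EIF4G2 (-0.39) and EIF4H (-0.36) made up the rest. The calls of EIF1AX, EIF2A, EIF2AK2, EIF2S1 and EIF4G2 were lost without the siNupr1 0 h array, and that of EIF4H without the siCtrl 0 h or 9 h array or either siRelA array (adjusted p up to 0.204). The sets differ in their reference, 9 h of mock in the NF-kB set and 0 h in the Nupr1 set, and in everything else that separated the experiments, and these cannot be told apart.

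**Figure D3:**
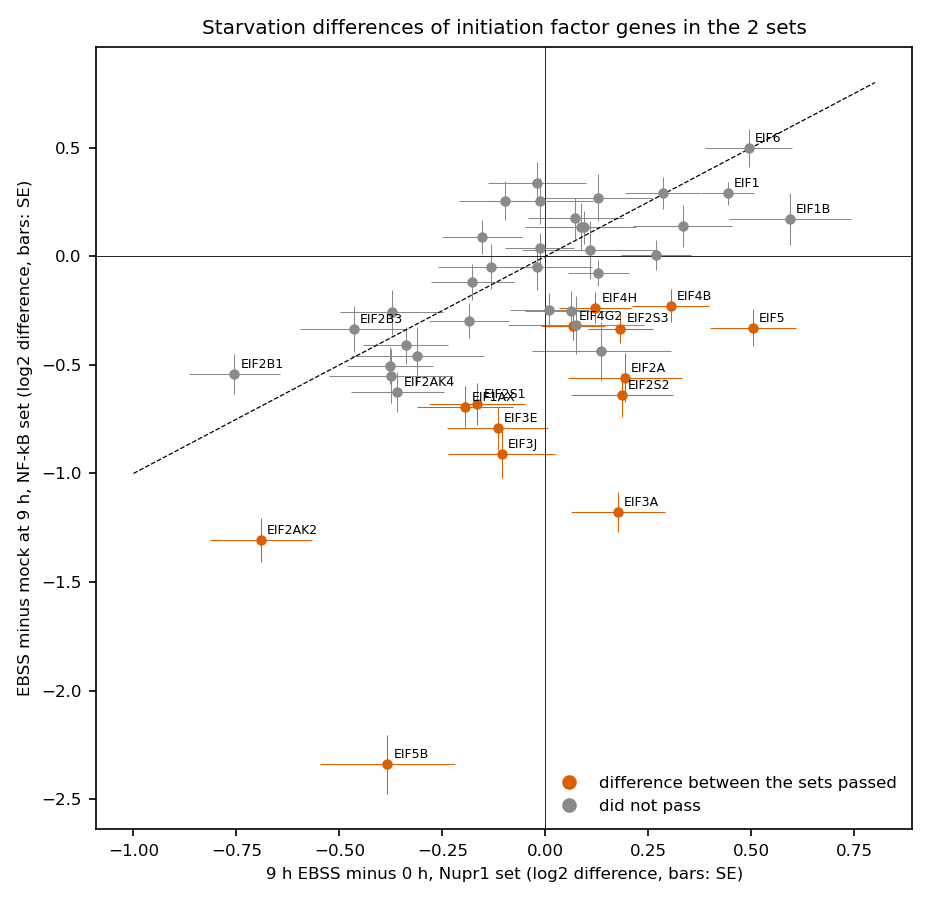
Starvation difference at 9 h of the 47 tested members in the NF-kB set (vertical, EBSS minus mock, 3 pairs) against the Nupr1 set (horizontal, 9 h minus 0 h, 2 pairs), in log2 units with bars of 1 SE. Orange points are the 14 members whose difference between the sets passed, and all lie below the dashed line of equality; EIF6 and EIF1 lie to the upper right in both sets.

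Some members passed at 9 h in both sets. All 7 members that fell against 0 h also fell against mock, which is 26.9% of the 26 that fell against mock: EIF2AK2, EIF2AK4, EIF2B1, EIF2B3, EIF4A3, EIF4E2 and EIF4EBP2. Of all genes that fell against 0 h, 61.4% also fell against mock, which is 31.5% of those that fell against mock. EIF1, EIF3D and EIF6 rose in both, which is 42.9% of the 7 that rose against 0 h and 3 of the 6 that rose against mock. Over all genes these shares were 41.8% and 17.0%. The 2 comparisons share no array.

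Silencing of NUPR1 lowered 8 members and raised 2 (21.3% of members, beside 18.4% of all genes, of which 8.58% fell and 9.86% rose). Both alternative tRNA carriers were among the 8. EIF2A measured 8.85, 8.57, 8.56 and 8.84 with siCtrl over 0 to 9 h against 7.97, 7.99, 8.20 and 8.36 with siNupr1, with no overlap, and fell by 0.57 ± 0.10 (adjusted p = 0.000593). EIF2D measured 8.22, 8.18, 8.56 and 8.50 against 7.85, 7.79, 7.96 and 7.74, also apart, and fell by 0.53 ± 0.09 (adjusted p = 0.000845). EIF3A and EIF4EBP2, whose levels are given above, fell by 0.38 ± 0.08 and 0.37 ± 0.07.

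EIF4A2 measured 10.84, 10.55, 10.35 and 10.75 with siCtrl and 10.47, 10.17, 10.20 and 10.19 with siNupr1, lower in all 4 pairs, and fell by 0.37 ± 0.07 (adjusted p = 0.00111), a call not kept with the mean of its clusters. EIF3K rose in all 4 pairs, from 10.17, 10.12, 10.02 and 10.03 to 10.50, 10.58, 10.46 and 10.34, by 0.39 ± 0.07 (adjusted p = 0.000753). EIF3I rose by 0.23 ± 0.06, and EIF5A2, EIF2AK2 and EIF2AK4 fell by 0.36 ± 0.12, 0.30 ± 0.09 and 0.28 ± 0.08. The calls of these last 4 were lost without a 3 h or 6 h array of either siRNA (adjusted p up to 0.202), and the count fell to 6 without any of those 4 arrays. The share of all genes in those fits is not given.

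For 10 of the 47 members the siNupr1 difference was negative at 0 h and at its highest at 9 h (21.3%, beside 16.9% of all genes). For 21 it was positive at 0 h and at its lowest at 9 h (44.7%, beside 33.0%). Of the 10, the members furthest below 0 at 0 h are given here. From 0 through 3 and 6 to 9 h EIF5B differed by -0.73, -0.11, -0.12 and 0.07, EIF2AK2 by -0.54, -0.40, -0.23 and -0.03, EIF3A by -0.52, -0.55, -0.32 and -0.15, and EIF1AX by -0.40, -0.30, -0.21 and 0.22. EIF1AD, one of the 21, ran at 0.48, 0.06, -0.24 and -0.35. A slope of the difference on hours passed for 0 members and for 0% of all genes (limma, adjusted p under 0.05). At an unadjusted p under 0.05 there were 12 members, or 25.5%, beside 19.5% of all genes. Fitted on the Nupr1 set alone, 5 members passed (10.6%, beside 7.63% of all genes), with slopes of 0.08 per hour for EIF5B, 0.06 for EIF1AX and EIF2AK2, 0.04 for EIF3A and -0.09 for EIF1AD. These 5 genes are named here after their values were seen.

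Silencing of RELA lowered 8 members and raised 4 (25.5% of members, beside 21.5% of all genes, of which 11.4% fell and 10.1% rose), and silencing of RELB lowered 10 and raised 1 (23.4%, beside 16.1%, with 8.55% lower and 7.58% higher). Quantile normalization changed the latter split to 8 lower and 3 higher (17% and 6.4%, beside 8.63% and 9.02% of all genes). Both comparisons use the same siCtrl arrays. EIF3E fell most in each, by 1.27 ± 0.12 under siRelA (adjusted p = 9.05e-07), and its siRelB difference was -0.85 ± 0.12 (adjusted p = 8.47e-05). EIF5 fell by 0.72 ± 0.10 (adjusted p = 7.4e-05) and 0.77 ± 0.10 (adjusted p = 4.51e-05). These calls were kept in each fit that left out 1 array. With siRelA both media gave like differences, -1.30 in EBSS and -1.25 in mock for EIF3E and -0.73 and -0.71 for EIF5.

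EIF2A fell by 0.66 ± 0.14 with siRelA and 0.63 ± 0.14 with siRelB. Both calls were lost without the siCtrl EBSS array, and also without the siRelA EBSS array in the first and the siRelB mock array in the second (adjusted p up to 0.125). EIF2S2 fell by 0.41 ± 0.12 and 0.75 ± 0.12, the first lost without any of the 4 arrays compared (adjusted p up to 0.239). EIF1AX fell by 0.38 ± 0.12 and 0.39 ± 0.12, and both were lost without either siCtrl array or the EBSS array of the silenced cells (adjusted p up to 0.262).

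With siRelA, EIF2AK3 fell by 0.55 ± 0.15, and EIF2D and EIF2B1 rose by 0.63 ± 0.13 and 0.49 ± 0.11. EIF2D measured 8.61 in EBSS and 8.60 in mock beside 8.18 and 7.78 with siCtrl, and EIF2B1 9.11 and 9.66 beside 8.61 and 9.17. EIF3B rose by 0.44 ± 0.09 and EIF2S3 by 0.31 ± 0.08, and EIF4A3 and EIF3M fell by 0.30 ± 0.10 and 0.27 ± 0.07. The calls of EIF2B1 and EIF3B were kept in all 14 fits. Those of EIF2AK3, EIF2D, EIF2S3, EIF3M and EIF4A3 were lost without single arrays of the set (adjusted p up to 0.458). That of EIF4A3 was also lost without any 3 h or 6 h array of the Nupr1 set. Without the siCtrl mock array 6 members passed, 4 lower and 2 higher (the share of all genes in that fit is not given).

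With siRelB, EIF5A2 fell by 0.75 ± 0.16, at 6.18 in both media beside 6.51 in EBSS and 7.36 in mock with siCtrl, so that the mock pair carried most of it; the call was lost without either mock array (adjusted p up to 0.265). EIF3J fell by 0.70 ± 0.13, at 7.58 and 8.42 beside 8.14 and 9.26, a call lost without the siCtrl mock array (adjusted p up to 0.0569). EIF2S1 fell by 0.56 ± 0.12, EIF3H by 0.34 ± 0.11 and EIF1 by 0.19 ± 0.06, and EIF3J-DT rose by 0.37 ± 0.12. These 4 calls were lost without the siCtrl EBSS array (adjusted p up to 0.446). Those of EIF1, EIF3H and EIF3J-DT were each lost without any of 8 single arrays. These were the siCtrl and siRelB arrays of the set and the 3 and 6 h arrays of the Nupr1 set. The count was 6 without the siCtrl EBSS array, and 5 without the siCtrl mock or siRelB mock array (the shares of all genes in these fits are not given). The siRelB difference of EIF5B was -0.48 ± 0.16 (adjusted p = 0.0512), beside -0.02 ± 0.16 for siRelA.

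**Figure D4:**
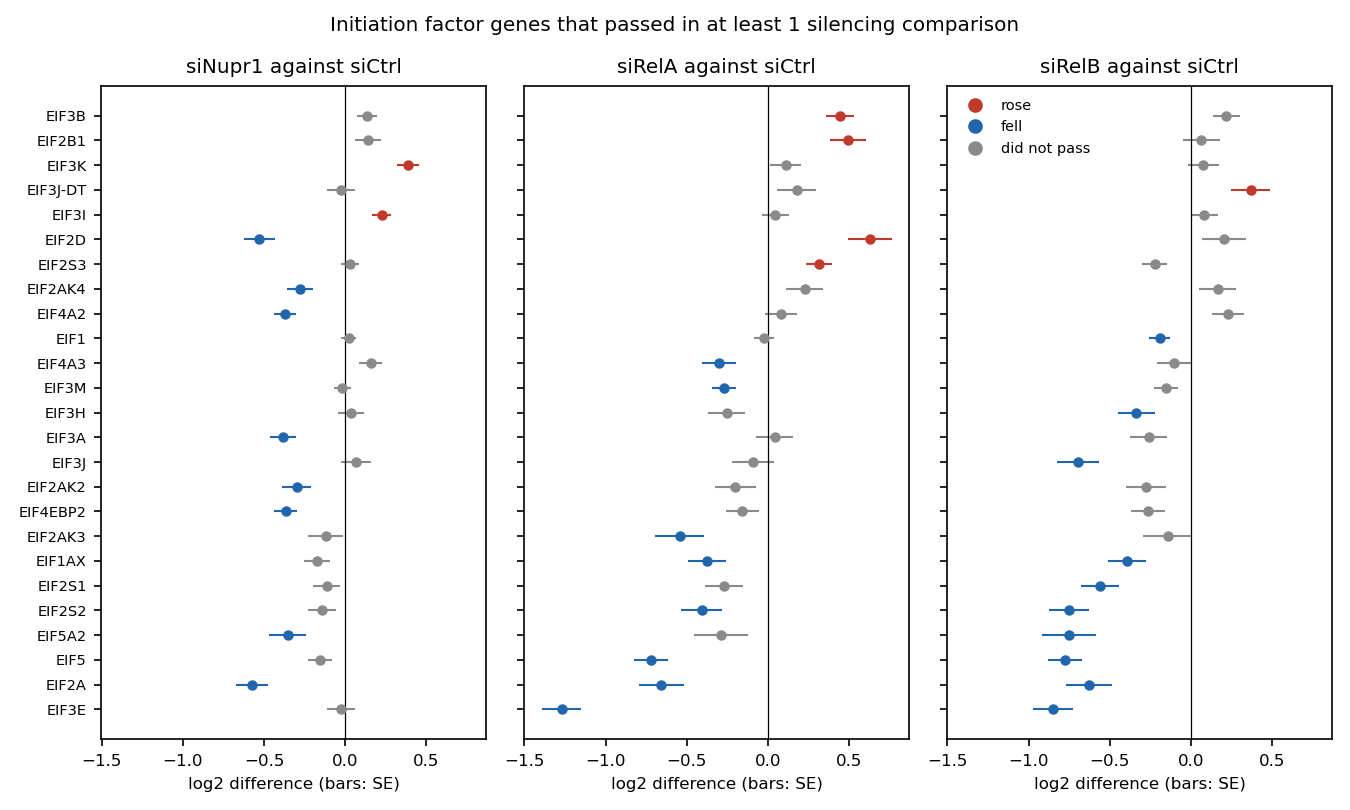
Differences between silenced and control siRNA cells for the 25 initiation factor genes that passed in at least 1 silencing comparison, in log2 units with bars of 1 SE (siNupr1 4 pairs, siRelA and siRelB 2 pairs each, the latter against the same siCtrl arrays). EIF3E lies at -1.27 with siRelA and -0.85 with siRelB and near 0 with siNupr1 (-0.03).

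Longer genes fell more in EBSS against mock, members and other genes alike. Across the tested genes with a known genomic span the rank correlation of span with the difference was -0.42 (11015 genes) and among the 47 members -0.48; genes share the same arrays and are not independent replicates. The median span was 22.4 kb for members and 24.8 kb for all. Members that fell had a median span of 25.1 kb (5.61 to 136.07 kb), those that rose 5.38 kb (2.42 to 29.83 kb) and those that did not pass 17.8 kb. With the trend of difference on span removed, 22 members fell and 5 rose (46.8% and 10.6%, beside 26.2% and 21.1% of all genes in that fit). EIF5B then fell by 2.16, EIF2AK2 by 1.14 and EIF3A by 1.04. The calls of EIF1, EIF2B3, EIF3G, EIF3H, EIF3J-DT, EIF4B and EIF4E2 were not kept. For 9 h against 0 h the correlation was -0.02 over all genes and -0.29 among members.

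**Figure D5:**
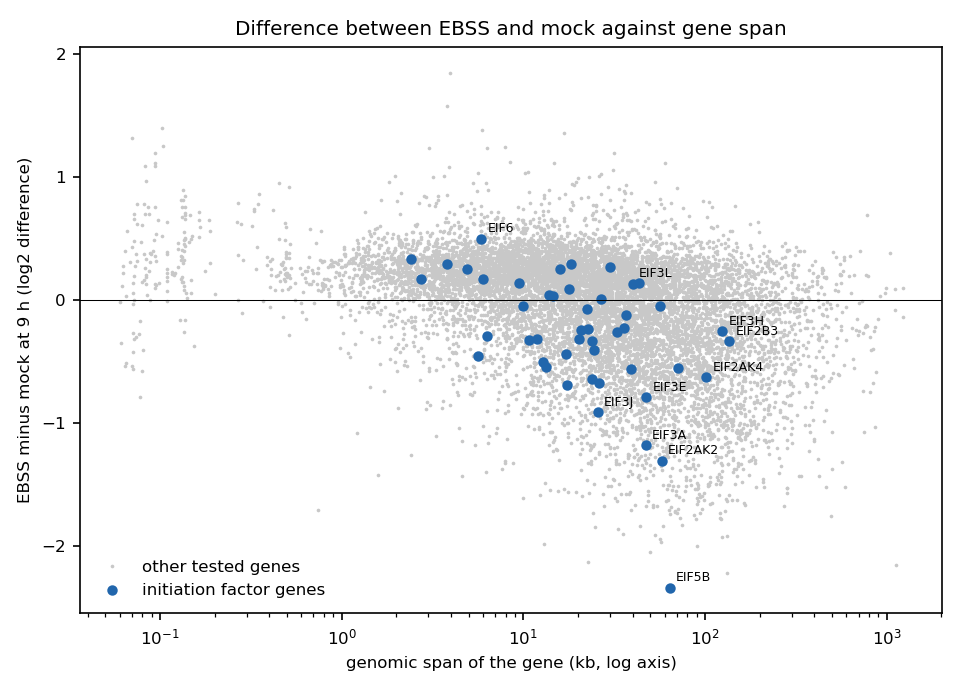
Difference between EBSS and mock at 9 h (log2, vertical) against genomic span (kb, log axis) for the initiation factor genes (blue) and all other tested genes with a span (grey). The cloud of grey points slopes down to the right, with a rank correlation of -0.42, and EIF5B lies at the lower edge, at -2.34.

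Genes around the initiation factors were taken from lists chosen with earlier results of these data known. Of 10 genes listed as ATF4 and its targets, the transcriptional arm that eIF2 phosphorylation turns on, 7 were raised and 1 was lowered in EBSS relative to mock (70.0% and 10.0%, beside 22.6% and 29.3% of all genes), with DDIT3 up by 1.85 ± 0.16, TRIB3 by 1.36 ± 0.13 and CHAC1 by 1.23 ± 0.15. At 3 h 8 of the 10 rose, and at 6 and 9 h 10 of 10 did, beside 3.27%, 7.65% and 9.19% of all genes. SLC7A11 rose by 3.39 ± 0.17 at 9 h and fell by 0.36 ± 0.14 against mock. In the NF-kB set it lay near the filter level of 5.805. It measured 6.3, 5.1 and 5.5 in EBSS and 6.3, 5.9 and 5.8 in mock, in the order siCtrl, siRelA and siRelB. The siCtrl pair was level, and the starved arrays of the Nupr1 set lay at 8.3 or more. Among 7 regulators of eIF2 phosphorylation, 4 fell and 1 rose against mock (57.1% and 14.3%, beside the same 29.3% and 22.6%). PPP1R15A, which directs the phosphatase to eIF2 alpha, rose by 1.01 ± 0.14 against mock and by 1.90, 1.42 and 1.66 at 3, 6 and 9 h (SE 0.17). DNAJC3, an inhibitor of PKR and PERK, fell by 1.47 ± 0.10 against mock and by 0.37 to 0.59 in the time course. In the NF-kB set it measured 5.6, 5.7 and 5.6 in EBSS, under the filter level, and 7.0, 7.0 and 7.2 in mock.

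Of 18 tested partners of initiation whose names do not start with EIF, 7 fell and 0 rose in EBSS against mock. The 38.9% called is below the 51.9% of all genes, of which 29.3% fell. The helicase DHX29, which helps scanning through structured leaders, fell by 1.67 ± 0.12, the ribosome recycling factor ABCE1 by 1.08 ± 0.10 and the helicase DDX3X by 0.95 ± 0.09. Over the time course 4 fell at 3 h, 6 fell and 1 rose at 6 h, and 2 fell and 3 rose at 9 h (22.2%, 38.9% and 27.8% called, beside 12.3%, 23.4% and 24.3% of all genes). At 9 h PDCD4, an inhibitor of the eIF4A helicase, rose by 0.71 ± 0.13 and PAIP2 by 0.53 ± 0.10. Of 8 genes of mTORC1 and its S6 kinase arm, 3 fell and 2 rose against mock (62.5%, beside 51.9%), led by RPS6KB1 at -0.95 ± 0.10, and 0 passed at 3, 6 or 9 h. Among 10 tested elongation and termination factors, 4 rose and 3 fell against mock (70.0%, beside 51.9%), with the termination factor GSPT2 at -0.45 ± 0.10.

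In the silencing comparisons, 6 of the 10 ATF4-list genes fell with siRelA, 4 with siRelB and 2 with siNupr1, and 0 rose. Of all genes, 11.4%, 8.55% and 8.58% fell in these, and the 20.0% of the list called with siNupr1 is near the 18.4% of all genes. DDIT4 fell by 1.19 ± 0.18 with siRelA and 0.79 ± 0.18 with siRelB. It measured 9.8, 8.1 and 8.6 in EBSS and 8.3, 7.7 and 8.0 in mock, in the order siCtrl, siRelA and siRelB. The silenced arrays thus lay further below siCtrl in EBSS than in mock, with 1 array each. Of the 18 initiation partners 5 rose and 7 fell with siRelA, and 2 rose and 6 fell with siRelB (66.7% and 44.4% called, beside 21.5% and 16.1% of all genes). MKNK2, a kinase of eIF4E, rose by 1.07 ± 0.13 and 0.95 ± 0.13 in these, and RPS6KB1 fell by 0.98 ± 0.12 and 0.62 ± 0.12. The elongation factor EEF1A2 rose by 0.94 ± 0.08 with siNupr1 and by 0.64 ± 0.12 with siRelA.

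The genes whose pattern over the 14 arrays was most like that of EIF5B, by Pearson correlation of deviations from the means of the 2 sets, were CDC27 (0.984), UTRN (0.979), SCAF11 (0.978), IDE (0.976) and ANKRD17 (0.974). The arrays of each comparison share their siRNA and medium, and these values are a description. Among the members, EIF2AK2 was the most like it (0.936, the 97th gene in order), followed by EIF3A (0.898) and EIF3J (0.871), and EIF3J-DT was the least like it (-0.787).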

How the data were processed

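The authors deposited log2 expression values from RMA (robust multi-array average), per the submitters' processing notes, which also name limma. Neither their versions nor the annotation and genome build is given in the sources used here. RMA corrects background, quantile normalizes and summarizes probes, so a value is relative to its array and has no absolute scale. Clusters with 1 gene symbol in the array annotation took their current symbol through the Entrez identifier, and the brightest cluster of each of 18377 genes was kept. The 40% of genes with the lowest mean (under 5.805) were left out of the tests, which left 11026.

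All 14 arrays entered 1 linear model with 9 columns, for set, siRNA, medium and hours (R 4.3.3, limma 3.58.1, lmFit and eBayes with an intensity trend), with 5 residual degrees of freedom and 19.6 after moderation. A gene "rose" or "fell" where its adjusted p (Benjamini-Hochberg, 11026 genes) was under 0.05. Errors are SE from this model. The number of arrays limits the precision. The script was tested on simulated data. Members and gene lists were chosen with earlier results of these data known. Per-array values are given for the eIF2 kinases, the eIF2 subunits, the eIF4E repressors, EIF5B and up to 6 called members with the largest difference in each comparison, and some others beside them, and up to 3 called genes per pathway list are named. Alternatives were a further quantile normalization, no filter, the mean of a gene's clusters, array weights, no intensity trend, each set alone, removal of the trend on gene span, and each array left out. Motifs were searched with Python 3.11.15 in RefSeq promoter windows (GRCh38.p14).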

Additional observations from a re-analysis of the deposited data

Results flagged for a closer look

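A test of the difference itself set apart the starvation response of the 2 sets for 14 members, all lower in the NF-kB set (EBSS minus mock at 9 h) than in the Nupr1 set (9 h minus 0 h). The log2 differences were -1.96 for EIF5B, -1.35 for EIF3A, -0.83 for EIF5, -0.83 for EIF2S2, -0.81 for EIF3J, -0.75 for EIF2A and -0.68 for EIF3E. They were -0.62 for EIF2AK2, -0.53 for EIF4B, -0.51 for EIF2S3, -0.51 for EIF2S1, -0.50 for EIF1AX, -0.39 for EIF4G2 and -0.36 for EIF4H. The reference of each set and the experiment cannot be told apart.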

How the results depend on the processing

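Of the 119 called member values, 103 kept direction and call with the arrays quantile normalized again, 106 without the filter, 114 with the mean of a gene's clusters, 108 with array weights, 97 without the intensity trend and 106 with the span trend removed, and with each set fitted alone 99 of 105 did. The others kept their direction but not the call, except EIF4A2 between EBSS and mock, which was 0.0299 with the mean of its clusters (adjusted p = 0.823). In fits that left out 1 array, 1417 of 1666 values kept their call and 249 lost it, with 0 changes of direction.

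Counts of called members changed by over 1.5 times as follows. At 3 h, 9 became 5 without the filter and 14 with array weights; at 9 h, 14 became 6 with array weights; from 3 h to 9 h, 3 became 1 with array weights and 7 with the span trend removed; for the slope on hours, 0 became 5 with the Nupr1 set alone. The share of all genes called moved in the same direction in each of these fits, but not always by a like amount. From 3 h to 9 h with the span trend removed, it went from 7.34% to 7.66%, while that of members went from 6.4% to 14.9%. The cause was not tested. Over the fits without 1 array the counts ran from 23 to 34 for EBSS against mock, from 1 to 12, 3 to 16 and 6 to 14 at 3, 6 and 9 h, from 0 to 5 for 9 h against 3 h, from 6 to 10 for siNupr1, 6 to 13 for siRelA, 5 to 12 for siRelB and 10 to 15 for the difference between sets, and were 0 for the slope. The share of all genes called in the fits without 1 array is not given, so these ranges describe the members alone. The difference between sets has no value with each set alone. Each combination has 1 array, so noise and a dependence of the siRNA difference on medium or time cannot be told apart in the residuals.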
